A study of Mus musculus with 6 samples.

Results

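The interleukin 2 receptor and its STAT5 pathway were followed through 10 genes in sorted mouse regulatory T cells. The genes encode the receptor subunits (Il2ra, Il2rb, Il2rg), the Janus kinases bound to them (Jak1, Jak3), the STAT5 transcription factors (Stat5a, Stat5b) and feedback inhibitors (Cish, Socs1, Socs2). They were taken as the rows whose Ensembl gene ID maps to these symbols. All 10 were found among 47069 genes, and all 10 passed the minimum mean of 1 FPKM, a read density that corrects for gene length and for library size.

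RNA was sequenced in 6 libraries of these cells, a suppressive branch of CD4 T cells that depends on the transcription factor Foxp3, to ask how loss of Noc4l alters their transcripts. Mice of both genotypes carried a Cre recombinase driven by Foxp3, which restricts recombination to Foxp3-expressing cells, and were labelled Foxp3Cre Noc4l+/fl (Het) or Foxp3Cre Noc4l fl/fl (cKO). The genotype labels give these alleles, whereas the extraction protocol writes Noc4l+/fl for both genotypes. CD4+GFP+CD62L-high cells of lymph node and spleen were sorted, with a CD25 antibody in the panel, and stimulated for 48 h or 72 h with Dynabeads. At 48 h there was 1 library per genotype (Het 1, cKO 2), and at 72 h there were 2 per genotype (Het 1 and Het 3, cKO 2 and cKO 4). The sources used here do not give the age of the mice or say whether interleukin 2 was added to the cultures. Nothing in the labels says whether libraries came from separate animals, pools or cultures, so the p-values reflect only how far the libraries spread, which may be technical. The standard error (SE) and p-value of each fitted gene also borrow from the spread of other genes.

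Interleukin 2 is a growth and survival factor on which regulatory T cells depend, and these cells take up the cytokine largely made by other T cells. The receptor's α subunit, CD25, raises the affinity for the cytokine, while the β and common γ subunits carry the signal through JAK1 and JAK3 to STAT5A and STAT5B. Phosphorylated STAT5 enters the nucleus and binds DNA, and CIS, SOCS1 and SOCS2, proteins of the SOCS family, dampen cytokine signalling.

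Promoter sequences show the DNA that STAT5 and related factors could read at these genes. They came from RefSeq (GRCm38.p6), which is another build than that of the deposited tables, and 8 of the 10 genes matched, with 10 annotated starts. Each was searched on both strands from 250 bases before to 50 bases after the start for TTCNNNGAA (the motif bound by STAT factors), TGANTCA (bound by AP-1, a factor induced by T cell activation) and the interferon response motif. Cish and Socs1 are printed because they held matches, shown in capitals, and Stat5a and Stat5b because this paralogous pair had unlike values below. Cish runs from chr9:107296409-107296678 on the plus strand, Socs1 from chr16:10785537-10785786 on the minus strand, Stat5a (the downstream of its 2 starts) from chr11:100860234-100860483 on the plus strand, and Stat5b (its CpG-rich start) from chr11:100850582-100850831 on the minus strand.
Cish: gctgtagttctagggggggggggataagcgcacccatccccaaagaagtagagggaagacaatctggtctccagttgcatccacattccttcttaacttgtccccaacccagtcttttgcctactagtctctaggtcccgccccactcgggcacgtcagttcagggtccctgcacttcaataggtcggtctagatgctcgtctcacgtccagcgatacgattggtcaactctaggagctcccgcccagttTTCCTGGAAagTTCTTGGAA
Socs1: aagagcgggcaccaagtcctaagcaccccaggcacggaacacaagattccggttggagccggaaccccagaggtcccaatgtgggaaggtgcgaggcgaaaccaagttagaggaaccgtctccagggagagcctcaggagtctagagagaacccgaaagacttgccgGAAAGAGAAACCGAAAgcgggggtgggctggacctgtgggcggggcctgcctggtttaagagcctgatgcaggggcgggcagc
Stat5a: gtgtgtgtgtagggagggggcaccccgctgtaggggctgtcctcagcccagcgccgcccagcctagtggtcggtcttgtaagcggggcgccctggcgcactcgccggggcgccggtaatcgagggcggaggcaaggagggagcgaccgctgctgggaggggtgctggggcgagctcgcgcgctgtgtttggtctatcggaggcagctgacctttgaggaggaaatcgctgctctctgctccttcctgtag
Stat5b: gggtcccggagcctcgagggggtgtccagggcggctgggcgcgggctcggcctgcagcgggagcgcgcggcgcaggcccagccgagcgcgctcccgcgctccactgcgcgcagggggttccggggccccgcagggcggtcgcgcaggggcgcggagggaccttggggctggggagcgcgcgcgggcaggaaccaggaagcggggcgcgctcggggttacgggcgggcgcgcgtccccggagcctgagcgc
The Cish promoter held 2 STAT motifs, TTCCTGGAA at the annotated start and TTCTTGGAA 11 bases after it. At least 1 such motif occurred in 8.3% of 32851 mouse promoters of the same length, and at least 2 in 0.457%. The Socs1 promoter held 2 overlapping interferon response motifs, GAAAGAGAAA and GAAACCGAAA, at offsets of -83 and -77 from the start. That motif occurred in 3.44% of promoters, and at least 2 matches in 0.225%. The AP-1 motif, present in 7.81% of promoters, was in none of the 10 windows of these genes. Base composition differed between the starts of each STAT5 gene: with their downstream bases, the printed Stat5b window held 50 CpG and 82.7% G or C and its other start 7 CpG and 47.3%, and the printed Stat5a window held 27 CpG and 67.7% and its other start 5 CpG and 57.7%. The median promoter held 7 CpG and 52.7% G or C. A match describes the letters only, and binding was not measured here.

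The libraries held an estimated 16.4 to 28.8 M fragments, and the least covered value of the 10 genes rested on an estimated 1713 fragments (Il2rg in cKO 4), a counting error of 2.42%. Noc4l, the targeted gene, went from 99.1 FPKM in Het to 124 in the library labelled cKO at 48 h, and at 72 h from 48.8 to 81.7 in the pair of replicates 1 and 2 and from 40.8 to 58.1 in the other. It thus went against the labels in each pair, and every direction below is stated for libraries as labelled. The 6 regulatory T cell markers summed to 1430 to 1759 FPKM in the Het libraries and 1558 to 2135 in those labelled cKO, and Foxp3 was at least 147 FPKM in each. Markers of other cells were higher in the library labelled cKO of each 72 h pair for CD8 T and NK cells (6 genes, 65.9 against 222 and 12.3 against 96.4) and for neutrophils (6 genes, 38.5 against 341 and 21.5 against 75.3). Nkg7 alone made up 29.1 against 148 and 6.48 against 89.1 of the CD8 T and NK cell sums. Among Het 3 and cKO 4, Cd8a was 1.01 against 2.24 FPKM, Klrd1 0 against 0.453 and Ncr1 0.0556 against 0.123. Cd8b1 (4.69 against 4.47) and Klrb1c (0.0851 against 0) went the other way in that pair. Among the 48 h libraries the neutrophil markers summed to 43.9 for Het and 390 for cKO. The macrophage and dendritic cell markers were 3.41 against 44.3 there, the erythroid markers 0.716 against 21.6, the B cell markers 8.79 against 22.6 and the CD8 T and NK cell markers 25.4 against 35.9. In both Het 3 and cKO 4, S100a8, S100a9, Camp and Lcn2 were listed at 0, and Ltf made up nearly all of the sum. The 5 B cell markers were 12.4 against 83.5 and 9.11 against 8.18 in the 72 h pairs, the 5 macrophage and dendritic cell markers 5.45 against 33.6 and 3.17 against 10.4, and the 4 erythroid markers 19.8 against 17.7 and 5.34 against 1.25. Between Het 3 and cKO 4, Cd68 alone made up 2.90 against 10.2 of the macrophage and dendritic cell sums. Lyz2 was listed at 0 in both, and Adgre1 went the other way (0.245 against 0.114). In bulk RNA, fewer cells of a type and less RNA per cell cannot be told apart.

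All 3 receptor subunits, both kinases, both STAT5 genes and all 3 inhibitors were well expressed in each library. Il2ra had the highest level per length, at 1142 to 1554 FPKM, and ranked between position 23 and 88 of 12394 genes. A CD25 antibody, against the product of Il2ra, was in the sorting panel; whether cells were gated on it is not given in the sources used here, and the level is a description only. Il2rb followed at 393 to 653 FPKM with Jak1 below it in each library (315 to 422). Socs2 (217 to 458), Jak3 (131 to 344), Socs1 (148 to 328) and Cish (110 to 200.1) had lower means, with ranges that overlapped except for those of Socs2 and Cish. The order did not hold in each library. Socs2 exceeded Jak1 in Het 3 (431 against 422) and cKO 4 (458 against 373). Cish lay below Il2rg in cKO 2 at 48 h (116 against 122) and 72 h (128 against 132). At the lower end stood Il2rg (97.5 to 132), Stat5b (84.9 to 116) and Stat5a (51.5 to 115), whose ranges also overlapped. Within a library the α subunit transcript was 2.14 to 3.42 times that of the β subunit.

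**Figure D1:**
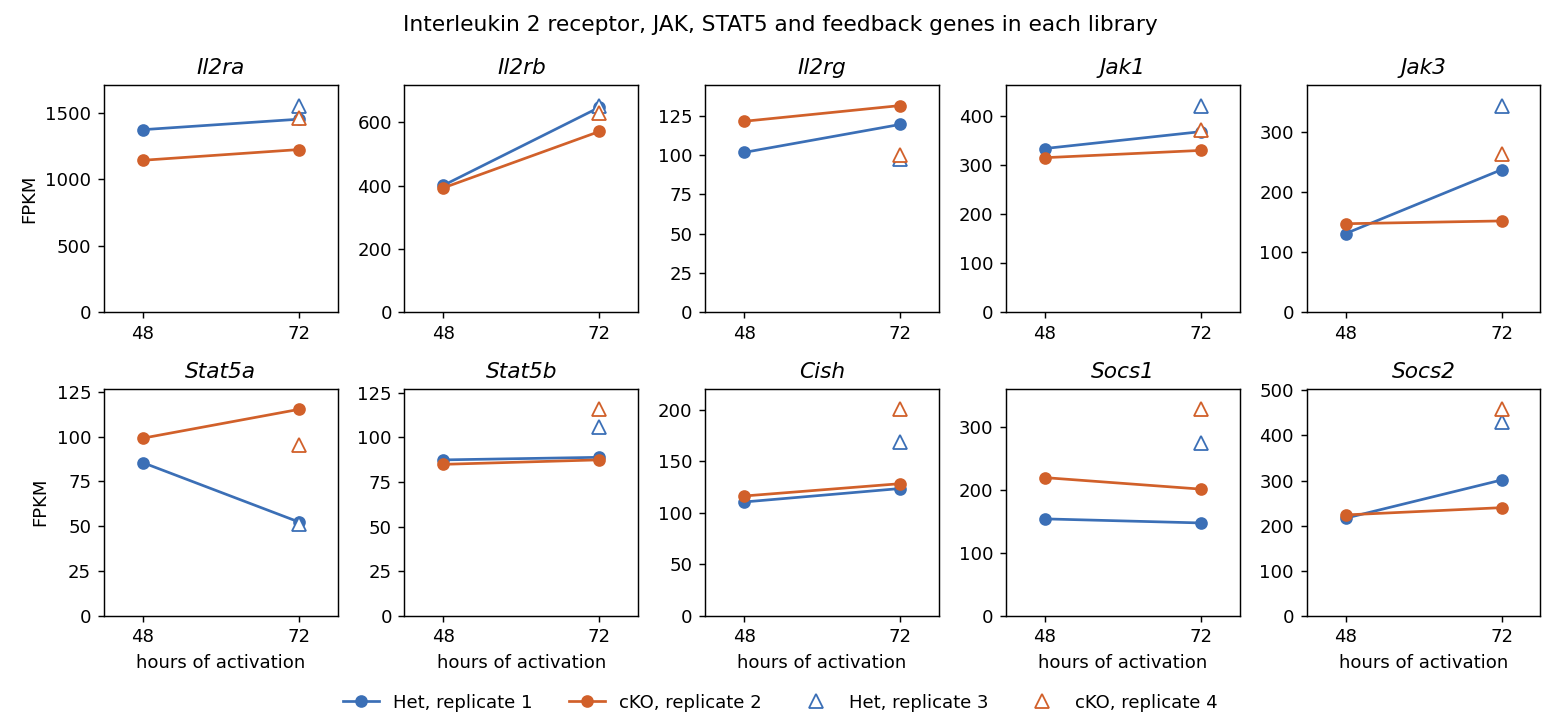
FPKM of each of the 10 genes (vertical axis) against hours of activation (horizontal axis), with Het in blue and libraries labelled cKO in orange; filled circles are replicates 1 and 2, joined by lines where the number is the same, and open triangles are replicates 3 and 4. Stat5a shows the Het libraries at 52.4 and 51.5 at 72 h, below 115 and 95.5 in the libraries labelled cKO, while Stat5b lies between 84.9 and 116 throughout.

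The first question was whether the genotypes differed at 72 h. Stat5a was about 1 log2 unit higher in the libraries labelled cKO, Socs1 was higher by 0.35 and Jak3 lower, and the receptor subunits, Jak1, Stat5b, Cish and Socs2 lay within 0.18 log2 of no difference. None of the 10 genes passed limma's adjusted p of 0.05, and 0% of the 12488 genes tested passed it (smallest adjusted p = 0.106, 2159 genes under an unadjusted p of 0.05). Of the 10 genes, 5 had a higher and 5 a lower fitted value in cKO, against 61% and 39% of all genes (Il2rg and Stat5b turned lower under median centring), with a median log2 difference of -0.03 against 0.08 for all genes. At an unadjusted p under 0.05 stood 1 gene that was higher (Stat5a, against 10.3% of all genes) and 1 that was lower (Jak3, against 6.99%). The libraries of the genotypes did not overlap for 1 gene higher in cKO (Stat5a, against 25% of all genes) and 1 lower (Il2rb, against 13.7%). Overlap, here and below, compares listed FPKM across the pairs, which may be scaled differently. Summed over all genes, FPKM at 72 h came to 686757 in Het 1 and 684617 in cKO 2. The sums were 624503 in Het 3 and 626402 in cKO 4. In both 72 h pairs, 4 genes were higher in cKO (Il2rg, Stat5a, Cish and Socs1, against 42.6% of all genes) and 4 lower (Il2ra, Il2rb, Jak1 and Jak3, against 24.5%).

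Among the receptor subunits, Il2ra was 1451 FPKM in Het 1 and 1554 in Het 3 against 1222 in cKO 2 and 1457 in cKO 4. It was lower in cKO within both pairs, although the highest cKO library lay above the lower Het library. Its log2 difference was -0.17 ± 0.13 (SE; each genotype had 2 libraries; limma adjusted p = 0.527). Il2rb (ENSMUSG00000068227), the signalling subunit shared with the interleukin 15 receptor, was 648 and 653 FPKM in Het 1 and Het 3 against 571 and 629 in cKO 2 and cKO 4. The genotypes did not overlap in listed FPKM, but Het 1 and cKO 4 belong to different pairs, which may differ in scale. The log2 difference, taken within the pairs, was small, at -0.12 ± 0.12 (SE, limma adjusted p = 0.643). Il2rg, the common γ chain shared by several cytokine receptors, was 120 and 97.5 FPKM in Het 1 and Het 3 against 132 and 100.2 in cKO 2 and cKO 4. Its libraries separated by replicate pair more than by genotype, and its log2 difference was 0.09 ± 0.12 (SE, limma adjusted p = 0.730; -0.0045 under median centring).

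Of the kinases, Jak1, which binds the β subunit, was 369 and 422 FPKM in Het 1 and Het 3 against 330 and 373 in cKO 2 and cKO 4. The log2 differences within the pairs were alike, at -0.16 and -0.18, and limma gave -0.17 ± 0.12 (SE, adjusted p = 0.504). Jak3 (ENSMUSG00000031805), the kinase bound to the common γ chain, was 237 and 344 FPKM in Het 1 and Het 3 against 152 and 263 in cKO 2 and cKO 4. It was lower in cKO within both pairs (log2 differences of -0.64 and -0.38), yet cKO 4 exceeded Het 1. The fitted log2 difference was -0.51 ± 0.14 (SE, limma adjusted p = 0.224), and 7.62% of genes had a lower value. Jak3 shares exonic sequence with Insl3 on the same strand (12.4 to 54.3 FPKM), so reads of the overlap cannot be assigned to either gene from these values.

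The STAT5 genes differed most from each other. Stat5a (ENSMUSG00000004043) was 52.4 FPKM in Het 1 and 51.5 in Het 3 against 115 in cKO 2 and 95.5 in cKO 4 at 72 h. Both libraries labelled cKO were above both Het libraries, with log2 differences of 1.12 in the first pair and 0.88 in the other. The fitted log2 difference was 0.999 ± 0.14 (SE, limma adjusted p = 0.122), a larger value than in 96.6% of genes. Of the 10 genes, Stat5a alone was at least 1.5-fold higher in both 72 h pairs, as were 4.63% of all genes, and none was at least 1.5-fold lower in both (2.95% of all genes). Stat5b (ENSMUSG00000020919), its paralog, was 88.9 and 106 FPKM in Het 1 and Het 3 against 87.4 and 116 in cKO 2 and cKO 4. Here the genotypes overlapped, and the log2 difference was 0.05 ± 0.13 (SE, limma adjusted p = 0.847; -0.039 under median centring).

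The ratio of Stat5a to Stat5b, taken within a library and so free of its scaling, was 0.590 in Het 1 and 0.488 in Het 3 against 1.32 in cKO 2 and 0.825 in cKO 4. The 48 h libraries stood closer, with 0.978 for Het 1 and 1.17 for cKO 2. The ratio was thus higher in the library labelled cKO in 3 of 3 pairs, by a mean of 0.72 log2 units (exact permutation test within pairs, two-sided p = 0.25, the smallest that 8 arrangements allow). The 48 h pair and the first 72 h pair carry the same replicate numbers, so the pairs may not be independent, as the test takes them to be. The sum of both transcripts at 72 h came to 141 FPKM for Het 1 and 157 for Het 3, and to 203 for cKO 2 and 211 for cKO 4. Stat5a lies next to Stat5b on one side and Stat3 on the other in the annotation, and its exons overlap those of Stat3 on the opposite strand. Stat3 stood at 254 to 343 FPKM, and without a stated strand setting reads of the overlap cannot be told apart. The ratio of Stat5a to Stat3 was also higher in cKO in 3 of 3 pairs, by a mean of 0.62 log2 units (exact permutation p = 0.25, the smallest possible). Stat5a and Stat5b are close paralogs, and how reads that match both were assigned is not given in the sources used here, so their levels are reported as uncertain. Beside these values, the summed neutrophil markers were higher in cKO at 48 h and in both 72 h pairs. At 48 h, where Stat5a differed by 0.21, the sum was 43.9 FPKM in Het 1 against 390 in cKO 2. In the 72 h pair of replicates 1 and 2, where Stat5a differed by 1.12, the sum was 38.5 against 341 FPKM. In the pair of replicates 3 and 4, where Stat5a differed by 0.88, it was 21.5 against 75.3, of which Ltf made up 21.4 and 75.3, while S100a8, S100a9, Camp and Lcn2 were listed at 0 in both libraries. The part of the neutrophil and of the CD8 T and NK cell markers in these values was not tested.

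**Figure D2:**
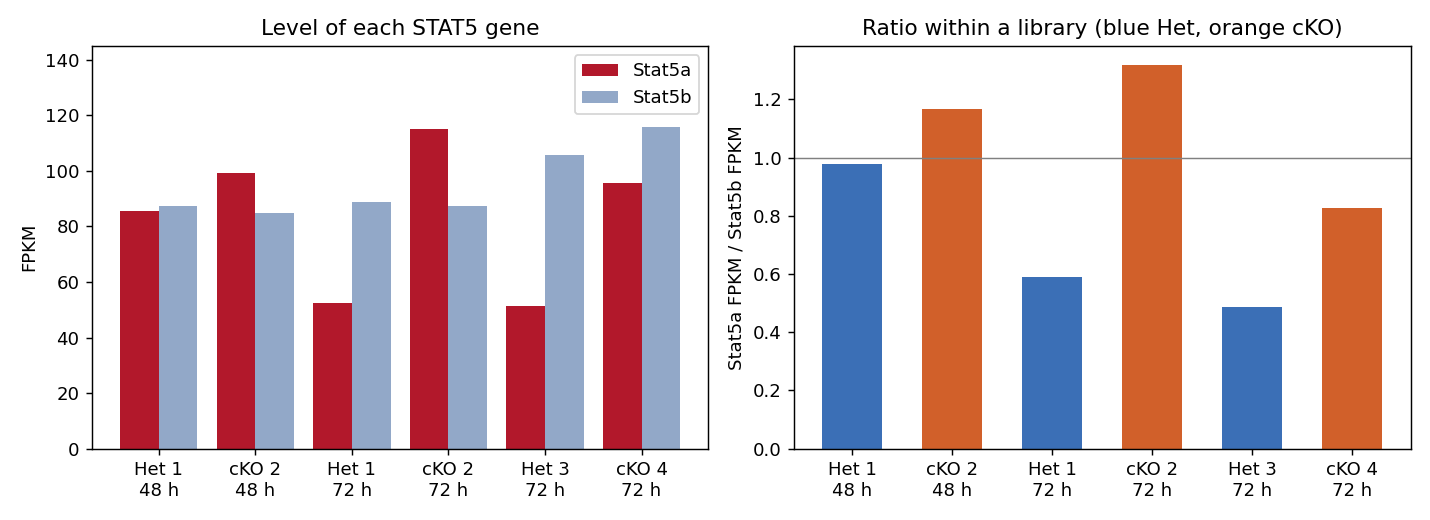
Left, FPKM of Stat5a (red) and Stat5b (grey-blue) in each library; right, the ratio of the 2 levels within each library, with Het in blue, libraries labelled cKO in orange and a line at a ratio of 1. The ratio lies at 0.590 and 0.488 in the 72 h Het libraries and at 1.32 and 0.825 in those labelled cKO.

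The feedback genes are themselves induced by cytokine signalling. Cish, whose product CIS binds activated receptors and whose promoter held the paired STAT motifs printed above, was 123 and 168 FPKM in Het 1 and Het 3 against 128 and 200.1 in cKO 2 and cKO 4. Its log2 difference was 0.15 ± 0.13 (SE, limma adjusted p = 0.573), with overlapping genotypes. Socs1, an inhibitor of JAK kinases, was 148 and 274 FPKM in Het 1 and Het 3 against 201 and 328 in cKO 2 and cKO 4. It was higher in cKO within each pair, but Het 3 exceeded cKO 2. The log2 difference was 0.35 ± 0.13 (SE, limma adjusted p = 0.294). Socs2, another inhibitor of the family, was 301 and 431 FPKM in Het 1 and Het 3 against 240 and 458 in cKO 2 and cKO 4. Its pairs went opposite ways, at -0.33 and 0.09, and limma gave -0.12 ± 0.16 (SE, adjusted p = 0.719).

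**Figure D3:**
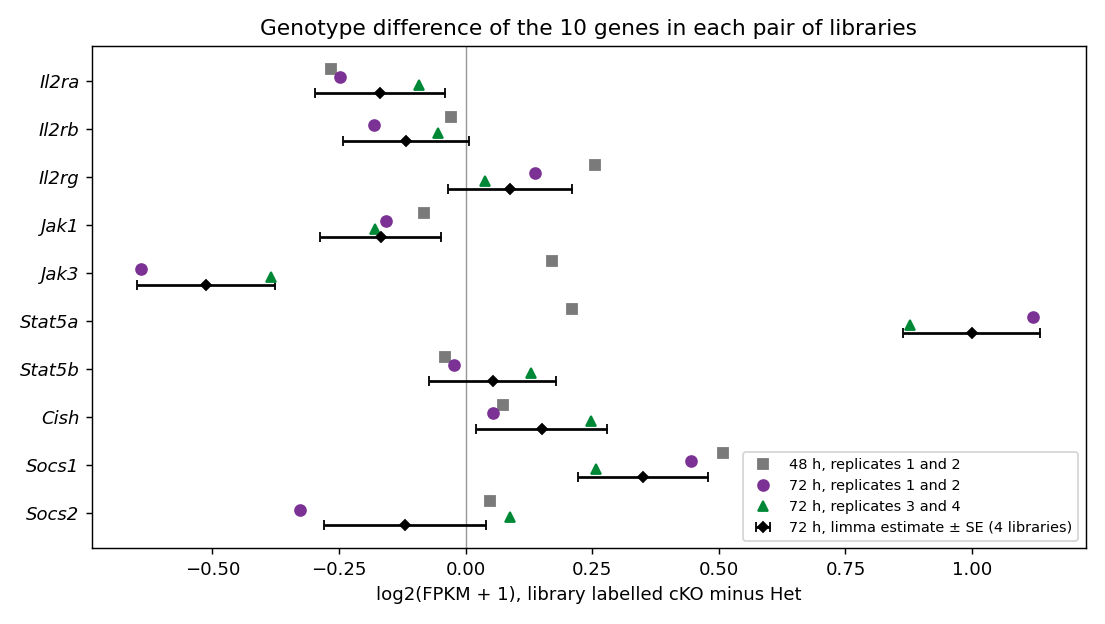
Difference of log2(FPKM + 1) between the library labelled cKO and Het (horizontal axis) for the 10 genes, in the 48 h pair (grey squares) and the 72 h pairs (purple circles, green triangles), with limma's 72 h estimate and its SE (black diamonds). Stat5a lies at 1.12 and 0.88 in the 72 h pairs and at 0.21 at 48 h, and Jak3 at -0.64 and -0.38 against 0.17.

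At 48 h, with 1 library per genotype and no test, differences were small. None of the 10 genes reached 1.5-fold in either direction, as did 3.04% of all genes with higher and 2.02% with lower values in cKO. The largest log2 difference was that of Socs1, 154 FPKM in Het against 220 in cKO (0.51). Il2ra was 1372 against 1142 FPKM (-0.26), and Il2rg 102 against 122 (0.25). Stat5a was 85.5 against 99.1 FPKM (0.21) and Jak3 131 against 147 (0.17), so both kinase and transcription factor stood slightly higher in cKO. The remaining genes, Il2rb (401 against 393), Jak1 (334 against 315), Stat5b (87.4 against 84.9), Cish (110 against 116) and Socs2 (217 against 224), had log2 differences between -0.08 and 0.07.

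Over all 3 pairs, 4 of the 10 genes were higher in the library labelled cKO each time (Il2rg, Stat5a, Cish and Socs1, against 23.5% of all genes) and 3 were lower each time (Il2ra, Il2rb and Jak1, against 14.7%). Stat5a was the only one of the 10 whose 3 libraries labelled cKO all exceeded its 3 Het libraries (5.79% of all genes), and none was lower in all (3.66%). In the additive fit of genotype, time and table, Stat5a had a log2 difference of 0.74 ± 0.19 (SE) and Socs1 one of 0.40 ± 0.10, both with limma adjusted p = 0.343. These 2 genes had an unadjusted p under 0.05 on the higher side, as did 8.04% of all genes, and none of the 10 did on the lower side (5.28%). Il2ra stood at -0.20 ± 0.10 (SE, limma adjusted p = 0.436) and Jak3 at -0.29 ± 0.17 (adjusted p = 0.494). The ratio of Il2ra to Il2rb was lower in cKO in 3 of 3 pairs, by a mean log2 difference of -0.11 (exact permutation test within pairs, two-sided p = 0.25, the smallest possible). So was the ratio of Il2rb to Il2rg (mean -0.23, exact permutation p = 0.25). That of Jak3 to Jak1 was higher in 1 of 3 pairs (mean -0.15, exact permutation p = 0.75). The fit and these tests took libraries of the same replicate number at 48 h and 72 h as independent, which they may not be. The median of the 10 genes was -0.02 against 0.05 for all genes. No gene of the 12394 passed the adjusted threshold in limma, 0% of those tested, while 1650 had an unadjusted p under 0.05.

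Whether the genotype difference changed between 48 h and 72 h was tested with an interaction term. The difference of Stat5a was larger at 72 h by 0.79 ± 0.23 log2 units (SE, limma adjusted p = 0.832), and that of Jak3 was lower at 72 h, with a term of -0.68 ± 0.23 (adjusted p = 0.856). Neither passed the adjusted threshold, nor did any of the 12394 genes (0%, 708 under an unadjusted p of 0.05). Unadjusted, 5.71% of genes had a p under 0.05, 3.43% on the side of Stat5a and 2.28% on that of Jak3. The median term of the 10 genes was -0.09 against 0.09 for all genes.

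The next comparison was of 72 h with 48 h, read within the table of replicates 1 and 2, the only one with 48 h libraries. Most of the pathway stood higher at 72 h: 8 of the 10 genes did so in both Het 1 and cKO 2, against 28.7% of all genes, and 1, Socs1, stood lower in both, against 26.6%. The sizes were modest. None was at least 1.5-fold higher in both genotypes, as were 2.48% of all genes, or that much lower (1.19%), and the median fitted difference was 0.13 against 0.00 for all genes. None of the 10 passed the adjusted threshold in limma, which 0.0242% of 12394 genes passed (3 genes, Tgm2, Cd8a and Gzmb). Cd8a, at 0.466 and 0.992 FPKM in the 48 h libraries, reached the minimum level only through the 72 h libraries, which fixed its direction. Of the 10 genes, 1 had an unadjusted p under 0.05 on the higher side (6.45% of all genes) and none on the lower (4.63%).

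That gene was Il2rb, which went from 401 FPKM to 648 in Het 1 and from 393 to 571 in cKO 2. The genotypes were alike, with 72 h levels 1.62 and 1.45 times those at 48 h, and the log2 difference was 0.62 ± 0.12 (SE, limma adjusted p = 0.271). Il2ra went from 1372 to 1451 FPKM in Het and from 1142 to 1222 in cKO (0.09 ± 0.12, SE). The ratio of α to β subunit transcripts was therefore lower at 72 h, at 2.24 against 3.42 in Het 1 and 2.14 against 2.91 in cKO 2. It was 2.38 in Het 3 and 2.32 in cKO 4. Il2rg had log2 differences of 0.23 in Het and 0.11 in cKO, and Jak1 of 0.14 and 0.07.

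The genotypes went apart over time for Jak3 and Stat5a. Jak3 went from 131 to 237 FPKM in Het 1 but from 147 to 152 in cKO 2. Stat5a went from 85.5 to 52.4 FPKM in Het 1 and from 99.1 to 115 in cKO 2. The 48 h Stat5a level of Het was thus nearer to the 48 h level of cKO than to either 72 h Het library. Fitted over both genotypes, the time differences were 0.45 ± 0.21 for Jak3 (SE, limma adjusted p = 0.493) and -0.24 ± 0.23 for Stat5a (adjusted p = 0.706). The ratio of Jak3 to Jak1 went from 0.391 to 0.643 in Het 1 and from 0.467 to 0.460 in cKO 2. Stat5b was nearly level, at 0.02 in Het and 0.04 in cKO, as was Cish at 0.16 and 0.14. Socs2 stood at 0.47 in Het and 0.10 in cKO, and Socs1 at -0.06 and -0.12.

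**Figure D4:**
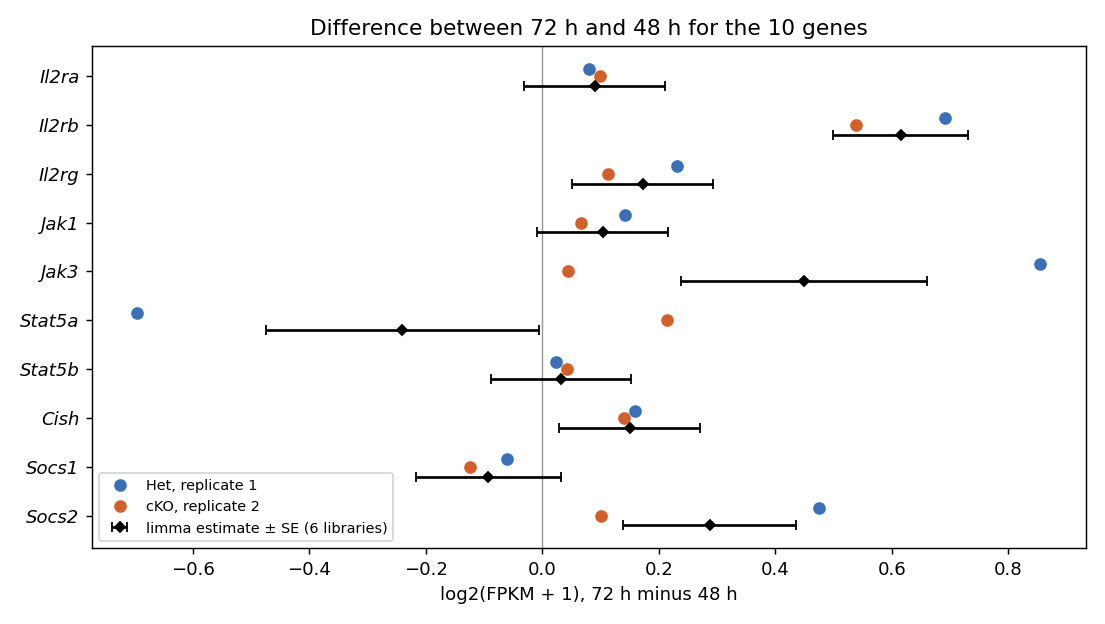
Difference of log2(FPKM + 1) between 72 h and 48 h (horizontal axis) for the 10 genes in Het replicate 1 (blue) and the library labelled cKO, replicate 2 (orange), with limma's estimate over 6 libraries and its SE (black diamonds). Il2rb lies at 0.69 and 0.54, while Stat5a lies at -0.70 in Het and 0.21 in cKO and Jak3 at 0.86 and 0.04.

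The genes around the pathway were read from lists of ligands, partner receptors, kinases, inhibitors, adaptors and targets. Their counts at 72 h stand against 61% of all genes with a higher and 39% with a lower fitted value in cKO, and 10.3% and 6.99% with an unadjusted p under 0.05 on each side. Il2 itself was low, with 0.729 and 0.504 FPKM in the 48 h libraries Het 1 and cKO 2, and 0.125 and 0.806 in their 72 h counterparts. It was listed at 0 in Het 3 and cKO 4, where 3 fragments would give 0.108 and 0.160 FPKM. Il15, a cytokine that signals through the same β and γ subunits, did not exceed 0.110 FPKM in any library. Of 6 common γ chain cytokines, Il4 and Il9 had a mean above the minimum level. Il9 was 0.178 FPKM in Het 1 and 0 in Het 3 against 7.11 in cKO 2 and 2.04 in cKO 4. It reached the minimum only through the libraries labelled cKO, which fixed its direction, so no test of it is given. Il4 was 0.927 FPKM (Het 1) and 1.74 (Het 3) against 6.21 (cKO 2) and 4.39 (cKO 4). Its log2 difference was 1.44 ± 0.30 (SE, limma adjusted p = 0.179), and as a low gene it depended on the pseudocount, with 0.70 for a pseudocount of 5 and 1.95 for 0.1.

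Of the 5 receptors that share the common γ chain, 3 had higher and 2 lower fitted values in cKO at 72 h, near the 61% and 39% of all genes, with 2 and 1 at an unadjusted p under 0.05 (10.3% and 6.99% of all genes). Il15ra, the interleukin 15 counterpart of Il2ra and its close neighbour in the genome, was 5.32 and 7.30 FPKM in Het 1 and Het 3 against 11.6 and 13.4 in cKO 2 and cKO 4. Its genotypes did not overlap, as was so for 25% of all genes with cKO higher. The log2 difference was 0.90 ± 0.15 (SE, limma adjusted p = 0.145), while Il2ra stood at -0.17. Il21r was higher in both pairs (0.42 ± 0.13, adjusted p = 0.260), and Il9r lower (-0.94 ± 0.19, adjusted p = 0.169). Il7r was 14.8 FPKM (Het 1) and 20.2 (Het 3) against 13.2 (cKO 2) and 39.0 (cKO 4), so its pairs went opposite ways. Il4ra, the interleukin 4 receptor chain, was 227 FPKM (Het 1) and 281 (Het 3) against 160 (cKO 2) and 278 (cKO 4).

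Among the 6 other JAK and STAT genes counted, 5 had higher and 1 a lower value in cKO at 72 h, with 1 in each direction at an unadjusted p under 0.05 and a median of 0.27 against 0.08 for all genes. Stat3, the neighbour of Stat5a, was 267 FPKM (Het 1) and 291 (Het 3) against 329 (cKO 2) and 343 (cKO 4), a log2 difference of 0.27 ± 0.12 (SE, limma adjusted p = 0.345). Stat2 stood at 0.45 ± 0.14 (adjusted p = 0.253), Jak2 at 0.33 ± 0.13 (adjusted p = 0.317) and Stat4 at -0.39 ± 0.13 (adjusted p = 0.273). Of the 13 other inhibitors of cytokine signalling, 9 were higher and 4 lower, and 1 had an unadjusted p under 0.05. That gene was Socs3, an inhibitor strongly induced by STAT3, at 337 and 736 FPKM in Het 1 and Het 3 against 120 and 412 in cKO 2 and cKO 4 (-1.16 ± 0.20, SE, adjusted p = 0.152). The SOCS genes thus had unlike values at 72 h, with Socs1 at 0.35 and Socs2 at -0.12. Of the 5 adaptors that link the receptor to Ras and PI3K, 3 were higher and 2 lower, and Gab2, a docking protein, stood at -1.35 ± 0.28 (SE, adjusted p = 0.179). Gab2 was a low gene, at 4.67 and 4.41 FPKM in Het 1 and Het 3 against 0.692 and 1.80 in cKO 2 and cKO 4. Its log2 difference ranged from -1.92 to -0.62 over the alternatives.

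Of the 17 genes known to be raised by interleukin 2 and STAT5, 11 had higher and 6 lower values in cKO at 72 h, near the 61% and 39% of all genes. At an unadjusted p under 0.05 stood 4 and 3 of them (10.3% and 6.99% of all genes), and their median was 0.20 against 0.08 for all genes. Among its survival genes, Bcl2l1 and Bcl2 had values of opposite sign, while Mcl1, added to the named genes after its values were seen, stood at 0.06 ± 0.13 (SE). Bcl2l1, which encodes BCL-xL, was 35.5 and 26.4 FPKM in Het 1 and Het 3 against 137 and 70.9 in cKO 2 and cKO 4 (1.66 ± 0.18, SE, limma adjusted p = 0.111). Bcl2 was 138 FPKM (Het 1) and 143 (Het 3) against 82.4 (cKO 2) and 85.8 (cKO 4) (-0.74 ± 0.12, SE, adjusted p = 0.143). The list of genes lowered by interleukin 2 was chosen with earlier results of these data known, and Il7r was counted with the receptors instead. Of its 4 genes, 2 had an unadjusted p under 0.05 on the lower side (6.99% of all genes), and the median was -0.49. All 4 had lower values in cKO, as did 39% of all genes, a count that describes this list only. They were Il6ra (-0.62 ± 0.13, SE, adjusted p = 0.179) and Il6st (-0.34 ± 0.12, adjusted p = 0.289), which form the interleukin 6 receptor, and Tcf7 (-0.56 ± 0.22) and Bcl6 (-0.42 ± 0.21), transcription factors of T cell differentiation. The pairs of Tcf7 were unlike, at -0.20 for replicates 1 and 2 and -0.92 for replicates 3 and 4. No gene of these lists passed the adjusted threshold.

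**Figure D5:**
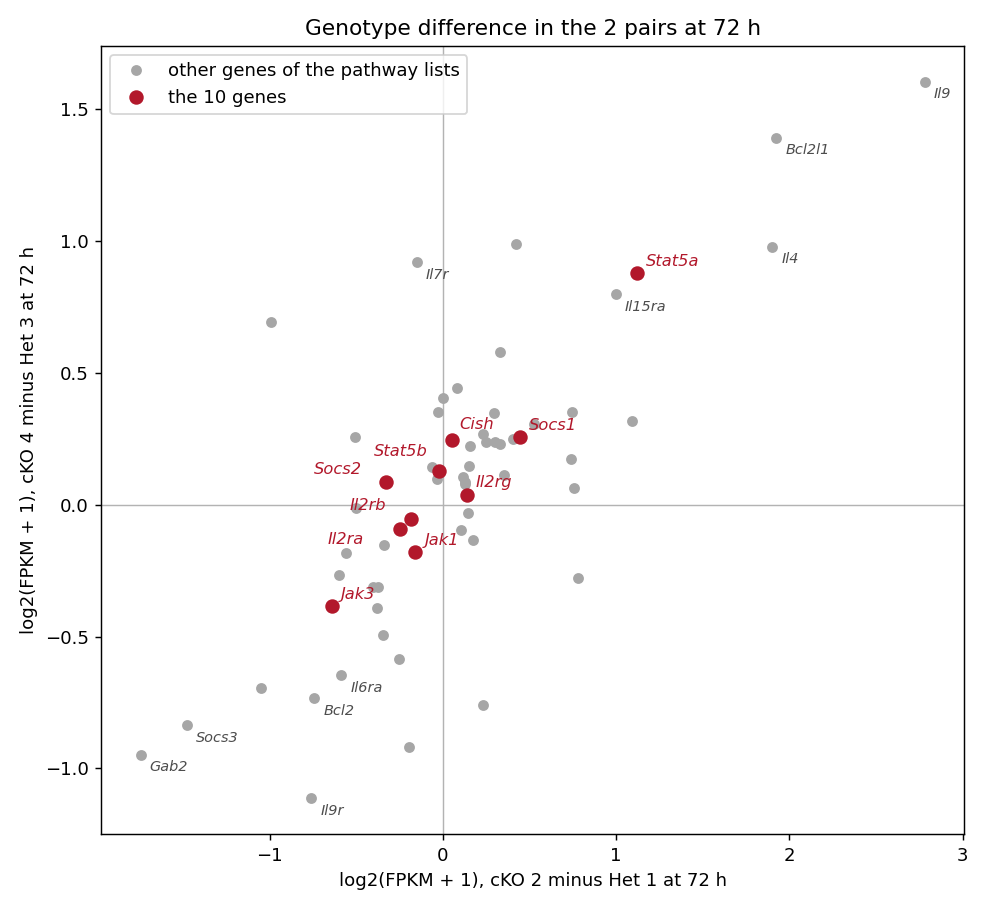
Difference of log2(FPKM + 1) between the library labelled cKO and Het in the 72 h pair of replicates 1 and 2 (horizontal axis) and of replicates 3 and 4 (vertical axis), for the 10 genes (red) and the other genes of the pathway lists with a mean of at least 1 FPKM (grey). Stat5a lies at 1.12 and 0.88, near Il15ra at 0.998 and 0.80, and Jak3 at -0.64 and -0.38.

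Over time, 12 of the 17 genes raised by interleukin 2 and STAT5 had higher and 5 lower fitted values at 72 h (50.3% and 49.7% of all genes), with 7 and 2 at an unadjusted p under 0.05 (6.45% and 4.63% of all genes). Gzmb, the cytotoxic protease granzyme B, was the only one to pass the adjusted threshold and rose from 23.7 to 379 FPKM in Het 1 and from 22.1 to 811 in cKO 2 (log2 difference 4.54 ± 0.29, SE, limma adjusted p = 0.0481). The call was lost in 11 of 16 alternatives, among them leaving out Het 1 at 48 h (adjusted p = 0.292), cKO 2 at 48 h (0.236), Het 3 (0.0843) or cKO 4 (0.0912). Cd8a moved with it, from 0.466 to 20.3 FPKM in Het 1 and from 0.992 to 39.0 in cKO 2, but was 1.01 in Het 3 and 2.24 in cKO 4, where Gzmb stood at 182 and 227. The part of other cells in the Gzmb value was not tested. Prf1, perforin, had a log2 difference of 1.67 ± 0.18 (SE, adjusted p = 0.147), Bcl2 one of 0.89 ± 0.16 (adjusted p = 0.271) and Bcl2l1 one of -0.96 ± 0.34 (adjusted p = 0.434). Of the 5 receptors that share the γ chain, 4 were higher and 1 lower at 72 h, and Il4ra (0.63 ± 0.16, adjusted p = 0.362), Il7r (0.83 ± 0.28, adjusted p = 0.415) and Il21r (0.55 ± 0.12, adjusted p = 0.311) had sizes near that of Il2rb.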

How the data were processed

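RNA libraries of 6 sorted samples were prepared with a SMART-Seq v4 low-input kit, per the labels' protocols. The submitters' processing notes name Bowtie2 2.2.3, TopHat2 2.0.12, HTSeq 0.6.1 and the build mm9; what each did, which annotation was used and whether counting used strand is not given in the sources used here. The authors deposited FPKM as a pair of tables, replicates 1 and 2 in one and 3 and 4 in the other, and 47069 shared rows with an Ensembl ID were used. The 278 other shared rows were left out.

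Depth was estimated from FPKM: 85.8% to 86.6% of low values lay within 0.02 of whole fragments, against 3.47% to 3.92% with gene lengths scrambled. The fragments served for counting error and floors only, with no test on counts.

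Tests used log2(FPKM + 1), so changes of low genes are understated, and genes whose mean reached 1 FPKM. limma 3.58.1 (R 4.3.3) fitted the models, with a variance trend and the table as a term, and Benjamini-Hochberg adjustment ran over all genes tested. The 72 h fit had 1 residual degree of freedom and the fit of genotype, time and table had 2. The variance of each gene was moderated towards the trend over all genes, which raised the mean degrees of freedom to 3.88 and 5.29. An SE is thus not the spread of that gene's libraries alone. Ratios used an exact permutation test within pairs. Python 3.11.15, pandas 2.3.3, numpy 2.4.6 and matplotlib 3.10.9 made tables and figures.

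The 10 genes and all lists were chosen with earlier results of these data known. All 10 are given in every library. Of each other list at most 6 genes are named, from those with the smallest p at 72 h or for time, plus Il2, Il15, Il15ra, Il7r and Il4ra. Foxp3 was added as a check, and Mcl1 after its values were seen. Not every gene with a small p is named: Osm, lower in cKO at 72 h, is not. A gene of these lists is not reported here and was left out of its list. Genotypes share no replicate number, and the 2 numbers shared across times pair libraries by number only. S100a8 was 81.2 FPKM at 48 h and 75.9 at 72 h in cKO 2, 0.141 and 0.194 in Het 1, and 0 in Het 3 and cKO 4. Whether libraries of the same number share an animal or culture was not tested, with 1 library per group at 48 h. The main fits and the permutation tests took them as independent. Promoters came from RefSeq (GRCm38.p6), and overlapping and neighbouring genes from annotations of that genome. Alternatives covered pseudocounts of 0.1 and 5, the filter, TPM rescaling, quantile normalization, median centring, the variance trend, the table term, each library left out and the replicate block.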

Additional observations from a re-analysis of the deposited data

How the results depend on the processing

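No value of the 10 genes passed the adjusted threshold under any alternative. Of 590 recomputed values 568 kept their sign and 22 changed it, across 10 results for Il2rg, Stat5a, Stat5b, Cish, Socs1 and Socs2. At 72 h and for the interaction, leaving out a library ended the test: Socs2 at 72 h was then 0.088 and its interaction 0.040 without the 72 h library Het 1 or cKO 2, and Stat5b at 72 h -0.023 and the Cish interaction -0.020 without Het 3 or cKO 4. The Stat5a difference at 72 h ranged from 0.88 to 1.12 (limma adjusted p from 0.105 to 0.263), that of Jak3 from -0.64 to -0.38.

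Median centring gave, at 72 h, -0.0045 for Il2rg, -0.039 for Stat5b and -0.060 for Grb2, over both times -0.040 for Stat5b, and an interaction of -0.0067 for Cish. With the table of replicates 1 and 2 alone, Stat5b over both times was -0.032. With single libraries left out it ranged from -0.032 (without Het 3 or cKO 4) to 0.053, and Socs2 from -0.14 to 0.068 (without Het 1 or cKO 2 at 72 h). For time, dropping the table term gave 0.30 for Socs1 and 0.034 for Foxp3. With single libraries left out, Stat5a ranged from -0.63 to 0.15 (without Het 1 at 48 h) and was 0.048 without Het 1 at 72 h. Stat5b ranged from -0.015 (without cKO 2 at 48 h) to 0.080.

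The count of genes called at 72 h went from 0 to 8 (6 higher, 2 lower) without the filter. Over both times it went from 0 to 9 with the table of replicates 1 and 2 alone, and from 0 to 7 with single libraries left out (7 without Het 3 and 7 without cKO 4). For time the count of 3 became 1 with a pseudocount of 5, 0 without the filter, 0 without the table term, and 0 to 4 with single libraries left out (0 without either 48 h library, 1 without Het 1 at 72 h). With the replicate block it became 0, with Gzmb at 4.54 and adjusted p = 0.0996; the block ended no call of the 10 genes, since none had passed. The causes were not tested. With 1 or 2 libraries per group, a p that misses the threshold does not show that values did not differ.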
